A study of Mus musculus with 6 samples.

Results

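CD8+ TRLs, T regulatory-like cells sorted as CD8+CD122+CD49dlo, were compared between the blood of mice 3 days after tMCAO and the blood of sham mice. In tMCAO the middle cerebral artery is blocked for a time, here 60 minutes, and then reopened, as a model of ischemic stroke. Sham mice had the surgery but no blocking of the artery. All mice were male and wild type, of the C57BL/6NCrl strain and 9 weeks old by the sample labels, while the methods name C57BL/6J. Each group had 2 samples of 500 to 1000 sorted cells, and whether a sample was 1 mouse or a pool is not given in the sources used here, so p-values cover no more than the spread among the samples at hand, part of which may be technical. TRLs from the brain of tMCAO mice, also 2 samples, entered the fit to estimate that spread. They also took part in the expression filter and in the scaling of the libraries. The genes described are the 11103 of 24394 gene symbols with at least 10 counts in both tMCAO blood libraries or in both sham blood libraries. Of these, 9966 reached the minimum in both groups, 222 in tMCAO blood only and 915 in sham blood only, and 11091 passed the expression filter and were tested. A gene that entered through 1 group only was admitted where it was high, which favors a lower level in the other group, and calls among such genes are given apart where they are many.

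CD122 is the beta chain shared by the receptors for IL-2 and IL-15, and in mice it marks CD8+ T cells of memory type. Central memory T cells keep CCR7 to enter lymph nodes and S1PR1 to leave them, whereas effector memory cells carry chemokine receptors for inflamed tissue and granule proteins for killing. Resting memory cells rely largely on mitochondrial respiration and fatty acid oxidation, and T cells that are activated through the antigen receptor raise glycolysis, ribosome production and translation. The gene groups below follow these programs.

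The 4 blood libraries were of like depth, with 16015169 and 17149924 counts on genes in tMCAO blood and 16939161 and 16690639 in sham blood. Genes with at least 10 counts numbered 11013 and 10626 in tMCAO blood and 11368 and 11407 in sham blood. Levels are given as CPM, read counts scaled to a common library size with TMM factors. All the genes of the sort gate were present in every library. *Cd8a* and *Cd8b1*, the chains of the CD8 coreceptor, averaged 1040 ± 347 and 2398 ± 524 CPM in tMCAO blood (SD, n = 2) and 908 ± 57.7 and 1784 ± 243 CPM in sham blood. *Cd3e*, part of the CD3 complex that signals for the T cell receptor, had 932 and 455 CPM in tMCAO blood and 700.4 and 754 CPM in sham blood. *Il2rb*, which encodes CD122, had 680 and 160 CPM in tMCAO blood, against 410 and 449 CPM in sham blood. *Ptprc*, the pan-leukocyte phosphatase CD45, had 2138 and 1470 CPM in tMCAO blood and 2977 and 3064 CPM in sham blood. None of these genes, nor *Itga4* for CD49d, passed the test, and the tMCAO blood libraries lay on either side of sham blood for *Cd8a*, *Cd3e* and *Il2rb*.

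Of 12424 genes tested, 102 fell in tMCAO blood (0.821%) and 0 rose, at an adjusted p under 0.05 by edgeR's quasi-likelihood test and a fold change over 2. The 102 are all among the genes described, of which they make up 0.92%. Of these 102, 83 had reached 10 counts in sham blood only, 79 were below 1 CPM in each tMCAO blood library, and 9 averaged at least 50 CPM over the 4 blood libraries, the level called well expressed here, which 3525 genes reached. Before adjustment, 228 of the genes described were higher at a p under 0.05 (2.06%) and 597 were lower (5.38%), and among well expressed genes 99 (2.81%) and 94 (2.67%) were. DESeq2 on the same 6 samples called 13 genes higher and 359 lower, and limma-voom called 0 higher and 22 lower. The edgeR calls depended on the brain libraries, which entered the estimate of spread, the filter and the scaling. In a fit of the 4 blood libraries, with 11386 genes tested, 0 genes were called in either direction. Without tMCAO blood 1 the counts were 284 higher and 469 lower (2.54% and 4.23% of the genes described), and without tMCAO blood 2 they were 12 higher and 126 lower. In these last 2 fits the lone tMCAO blood library is assumed to vary like the other groups.

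Genes of B cells and myeloid cells were among those that fell. Of the 102 genes, 24 belong to lists of genes known from cells other than CD8+ T cells (23.5%, while 84 genes of these lists were tested, 0.757% of the genes described), and 78 belong to none of them. *Cd22*, an inhibitory receptor of B cells, had 0.569 and 0.76 CPM in tMCAO blood and 19.9 and 17.4 CPM in sham blood (log2FC, the log2 fold change of tMCAO blood over sham blood, -4.80 ± 0.49 SE, edgeR adjusted p = 0.01). *Cybb*, which carries the catalytic site of the NADPH oxidase of phagocytes, had 2.48 and 3.97 CPM in tMCAO blood and 73.8 and 102 CPM in sham blood. *H2-Ab1*, an MHC class II chain of antigen-presenting cells, had 8.69 and 18.9 CPM in tMCAO blood, against 991 and 592 CPM in sham blood. In these genes the tMCAO blood libraries were far below sham blood and close to each other on that scale. In bulk samples, fewer cells of a type and less RNA per cell cannot be told apart.

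The lists of other cells differed in how far they moved, with calls in the B cell, monocyte and dendritic cell lists only. Among 18 B cell and plasma cell genes tested, 12 had reached the count minimum in sham blood only, and of the 8 that fell 6 were among these 12. The list summed to 150 and 415 CPM in tMCAO blood against 1662 and 1248 CPM in sham blood, with *Ebf1* and *Cr2* at 0 counts in both tMCAO blood libraries, against 331 and 190 counts of *Ebf1* and 558 and 301 of *Cr2* in sham blood. Among 21 monocyte and macrophage genes, 8 of which had reached the minimum in sham blood only, 9 fell, 7 of them among these 8, with sums of 1024 and 860 CPM in tMCAO blood and 1568 and 3347 CPM in sham blood, and *Csf1r*, *Adgre1*, *Fcgr1*, *Fcgr4*, *Clec4a3* and *Tlr4* stood at 0 counts in tMCAO blood, against 19 to 940 counts in the sham blood libraries. For dendritic cells and MHC class II together, 7 of 12 genes fell, 3 of them among the 4 that had reached the minimum in sham blood only, with sums of 189 and 297 CPM in tMCAO blood and 5733 and 3601 CPM in sham blood, and *Ciita* at 0 counts in tMCAO blood and 93 and 58 counts in sham blood. The neutrophil list was at 6.42 and 13.0 CPM in tMCAO blood and 10.3 and 19.0 CPM in sham blood, and *S100a8* and *S100a9*, abundant neutrophil products, were at 0 in tMCAO blood, with 3 and 0 counts of *S100a8* and none of *S100a9* in sham blood. The erythroid list was at 39.7 and 35.9 CPM in tMCAO blood and 45.8 and 25.9 CPM in sham blood, with the globin genes at 0 in both groups, and the platelet list was at 79.3 and 126 CPM in tMCAO blood and 113 and 119.5 CPM in sham blood. None of these 3 lists held a called gene. The list of CD4+ and regulatory T cell genes was at 302 and 157 CPM in tMCAO blood and 196 and 302 CPM in sham blood. This list held no called gene either. *Cd4* was at 0 counts in all 4 blood libraries, and *Foxp3*, the factor of CD4+ Tregs, had 3.98 and 3.74 CPM in tMCAO blood and 4.59 and 6.21 CPM in sham blood.

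NK cell genes divided the tMCAO blood libraries instead. The NK list, several genes of which memory CD8+ T cells also express, summed to 137 and 492 CPM in tMCAO blood and 570.3 and 598 CPM in sham blood. *Klre1*, an NK lectin-type receptor, had 14.0 and 74.3 CPM in tMCAO blood and 137 and 154 CPM in sham blood. *Tyrobp*, the adaptor DAP12 of activating NK and myeloid receptors, had 14.0 and 41.9 CPM in tMCAO blood against 87.5 and 115 CPM in sham blood. Both genes lay lower in both tMCAO blood libraries and neither passed the test. The part of other cells in the differences described below was not tested, other than by setting apart the genes of these lists.

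Among well expressed genes outside those lists, 2 fell and 0 rose. *Arrdc3*, an alpha-arrestin that sorts membrane receptors for degradation (chromosome 13, 80883384 to 80896042 of GRCm38), had 27.1 and 26.0 CPM in tMCAO blood and 101 and 164 CPM in sham blood. The tMCAO blood libraries agreed closely, and the log2 fold change was -2.32 (SE 0.32, adjusted p = 0.0303 by edgeR, with 2.03e-09 to 0.161 over the alternatives). *Arrdc3* was no longer called without tMCAO blood 2, sham blood 2 or either brain library, in the fit of the 4 blood libraries, with the replicate number as a block or with limma-voom. *Cd83*, a surface protein known from activated B cells and mature dendritic cells as well as activated T cells, had 2.74 and 1.34 CPM in tMCAO blood and 96.0 and 116 CPM in sham blood (log2FC -5.68 ± 0.56 SE, edgeR adjusted p = 0.0099). The other well expressed genes that fell were *Cd74*, *Cd79a*, *H2-Aa*, *H2-Ab1*, *H2-DMb2*, *H2-Eb1* and *Lyz2*, all of the B cell, dendritic cell or monocyte lists.

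Short of the test, part of the genes separated the 2 groups without overlap. With 2 against 2 libraries, such a separation in either direction has an exact permutation p of 0.333. Libraries that did not differ by group would therefore also separate in many genes. The shares given here do not by themselves show a difference between the groups. Both tMCAO blood libraries lay above both sham blood libraries in 18.7% of the genes described and below them in 19.3%. For well expressed genes the shares were 23.2% and 15.5%. The balance depended on the scaling. With factors taken from the list of T cell receptor complex and proximal signaling genes alone (T cell scaling), 1410 genes lay above and 2449 below. With TMM, 2069 lay above and 2136 below. The genes named next are those with the smallest p among well expressed genes without overlap, and none of the higher ones passed the test.

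Among the higher genes, *Thap3*, a THAP domain protein, had 148 and 95.5 CPM in tMCAO blood and 44.1 and 37.6 CPM in sham blood (log2FC 1.57 ± 0.32 SE, edgeR adjusted p = 0.119). *Mbd2*, a reader of methylated CpG, had 76.1 and 80.8 CPM in tMCAO blood and 35.8 and 36.3 CPM in sham blood (log2FC 1.12 ± 0.26 SE). The libraries of each group agreed closely for *Mbd2*, and DESeq2 on all 6 samples called *Thap3* and *Mbd2* higher, its only higher calls among well expressed genes outside the lists of other cells. *Rabif*, a chaperone of Rab GTPases, had 160.0 and 163 CPM in tMCAO blood, against 83.1 and 88.0 CPM in sham blood. *Fam3c*, a secreted protein, had 149 and 143 CPM in tMCAO blood and 87.6 and 68.6 CPM in sham blood. Both were uniform within tMCAO blood. *Slc25a33*, a mitochondrial pyrimidine nucleotide carrier, had 123 and 116 CPM in tMCAO blood and 59.5 and 53.9 CPM in sham blood. *Atpif1*, the inhibitor of the mitochondrial ATP synthase, had 123 and 164 CPM in tMCAO blood and 77.5 and 77.6 CPM in sham blood. Other genes of metabolism in this set were *Gnpda2* of amino sugar breakdown, *Agpat5* of phospholipid synthesis and *Ppcdc* of coenzyme A synthesis, with log2 fold changes of 0.98, 0.77 and 1.06. *Tmem192*, a lysosomal membrane protein, had a log2 fold change of 0.91.

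Among the lower genes, *Stk17b*, a kinase that restrains T cell receptor signaling (chromosome 1, 53755506 to 53785224), had 767 and 888 CPM in tMCAO blood and 1974 and 2272 CPM in sham blood (log2FC -1.36 ± 0.28 SE, edgeR adjusted p = 0.135). *Gpr174*, a lysophosphatidylserine receptor of lymphocytes, had 103 and 90.0 CPM in tMCAO blood and 234 and 195 CPM in sham blood. *Pde4b*, which degrades cyclic AMP, had 102 and 80.6 CPM in tMCAO blood, against 163 and 205 CPM in sham blood. In these genes the libraries of each group were close and the groups stood well apart. *Odc1*, the first enzyme of polyamine synthesis, had 61.2 and 68.4 CPM in tMCAO blood and 129 and 195 CPM in sham blood. *Tgif1*, a repressor of TGF-beta target genes, had 51.6 and 72.3 CPM in tMCAO blood and 132 and 157 CPM in sham blood. *Vps37b*, a subunit of the ESCRT-I sorting complex, had 30.0 and 20.8 CPM in tMCAO blood and 98.2 and 236 CPM in sham blood, so that the sham blood libraries differed more than the tMCAO blood libraries. *Filip1l*, *Sypl* and *Haus2* had log2 fold changes of -1.50, -1.11 and -1.03. *Fcmr*, the receptor for IgM known mainly from B cells, had 0 and 3.21 CPM in tMCAO blood and 164 and 95.5 CPM in sham blood, and was in none of the lists of other cells. DESeq2 on all 6 samples called 20 well expressed genes outside those lists lower, among them *Stk17b*, *Gpr174*, *Pde4b*, *Odc1*, *Tgif1*, *Vps37b*, *Filip1l*, *Sypl* and *Haus2*.

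**Figure D1:**
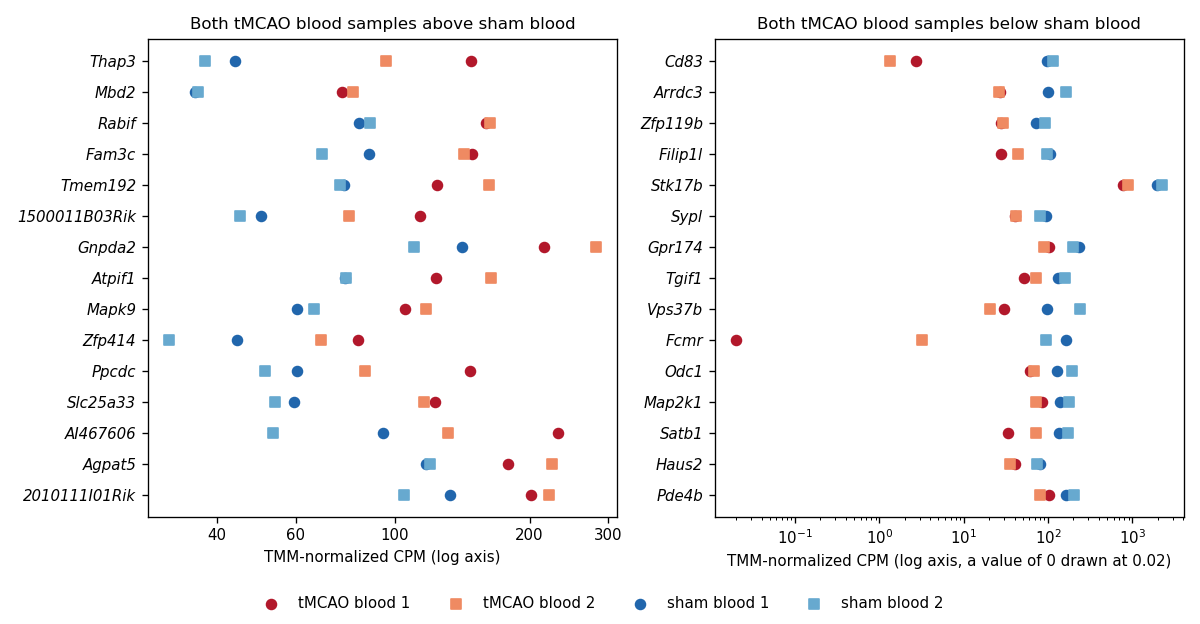
TMM-normalized CPM in each blood library (log axes) of the 15 well expressed genes outside the lists of other cells with the smallest p in each direction and no overlap between groups. Points are single libraries, tMCAO blood in red and sham blood in blue. For *Mbd2* the tMCAO blood libraries stand at 76.1 and 80.8 CPM, and for *Stk17b* at 767 and 888 CPM.

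The T cell lists, 20 groups of metabolism, translation, signaling and memory state, held 761 tested genes. edgeR called 1 of them lower and 0 higher, while 11 were higher and 20 lower at a p under 0.05 before adjustment, and limma-voom also called 1 lower. DESeq2 on all 6 samples called 0 higher and 7 lower: *Satb1*, *Zeb2*, *Deptor*, *Dusp6*, *Map2k1*, *Eef2k* and *Scd1*. Of these, *Deptor*, *Eef2k* and *Scd1* had reached the count minimum in sham blood only, which favors a lower level in tMCAO blood. Without tMCAO blood 1 edgeR called 68 higher and 21 lower, and without tMCAO blood 2 it called 1 higher and 3 lower. Of the 761 genes, 154 lay above sham blood without overlap (20.2%) and 115 below (15.1%), and 551 were well expressed. The calls given for each list below are edgeR's. Counts of genes above or below sham blood in a list are to be read beside 18.7% above and 19.3% below over the genes described. For lists made up mostly of well expressed genes, the shares over well expressed genes, 23.2% above and 15.5% below, are the closer background.

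Genes of central memory and quiescence lay more often below sham blood than above it. Of 24 genes tested 0 passed the test in either direction, 3 lay above sham blood without overlap and 9 below (37.5%, against 19.3% of the genes described), and the median log2 fold change was -0.27, against 0.06 over all genes described. *Ccr7*, the chemokine receptor for lymph node entry, chosen here after its values were seen, had 403 and 533 CPM in tMCAO blood and 840 and 837 CPM in sham blood (log2FC -0.84 ± 0.76 SE). *S1pr1*, the receptor for egress from lymph nodes, had 458 and 379 CPM in tMCAO blood, against 648 and 816 CPM in sham blood (log2FC -0.81 ± 0.26 SE). *Satb1*, a chromatin organizer of T cells, had 33.6 and 71.0 CPM in tMCAO blood and 136 and 172 CPM in sham blood (log2FC -1.56 ± 0.39 SE). All 3 genes separated the groups, and DESeq2 on the 4 blood samples called *Satb1* lower. *Klf3*, a transcriptional repressor of the Krüppel-like family, went the other way, with 274 and 333 CPM in tMCAO blood and 195 and 208 CPM in sham blood. The group's median log2 ratio to sham blood was -0.01 in tMCAO blood 1 and -0.51 in tMCAO blood 2.

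Effector and effector memory genes were divided. Of 30 genes, 0 passed the test, 4 lay above sham blood and 6 below, with a median log2 fold change of -0.07. *Cxcr3*, the receptor for interferon-induced chemokines, had 744 and 734 CPM in tMCAO blood and 513 and 443 CPM in sham blood (log2FC 0.63 ± 0.24 SE, edgeR adjusted p = 0.586). *Cxcr6*, a receptor of tissue-homing memory cells, had 664 and 1061 CPM in tMCAO blood and 513 and 373 CPM in sham blood. *Ccl5*, the chemokine RANTES stored by memory CD8+ T cells, and *Nkg7*, a granule protein, both chosen after their values were seen, also lay higher, with *Ccl5* at 8051 and 6392 CPM in tMCAO blood and 3513 and 2916 CPM in sham blood, and *Nkg7* at 4400.0 and 8826 CPM in tMCAO blood and 3966 and 3398 CPM in sham blood. On the lower side, *Klrd1*, the CD94 chain of NKG2 receptors, had 301 and 409 CPM in tMCAO blood and 704 and 657 CPM in sham blood (log2FC -0.94 ± 0.30 SE). *Zeb2*, a factor of terminal effector cells that myeloid cells also express, had 2.12 and 5.03 CPM in tMCAO blood and 9.99 and 13.7 CPM in sham blood.

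**Figure D2:**
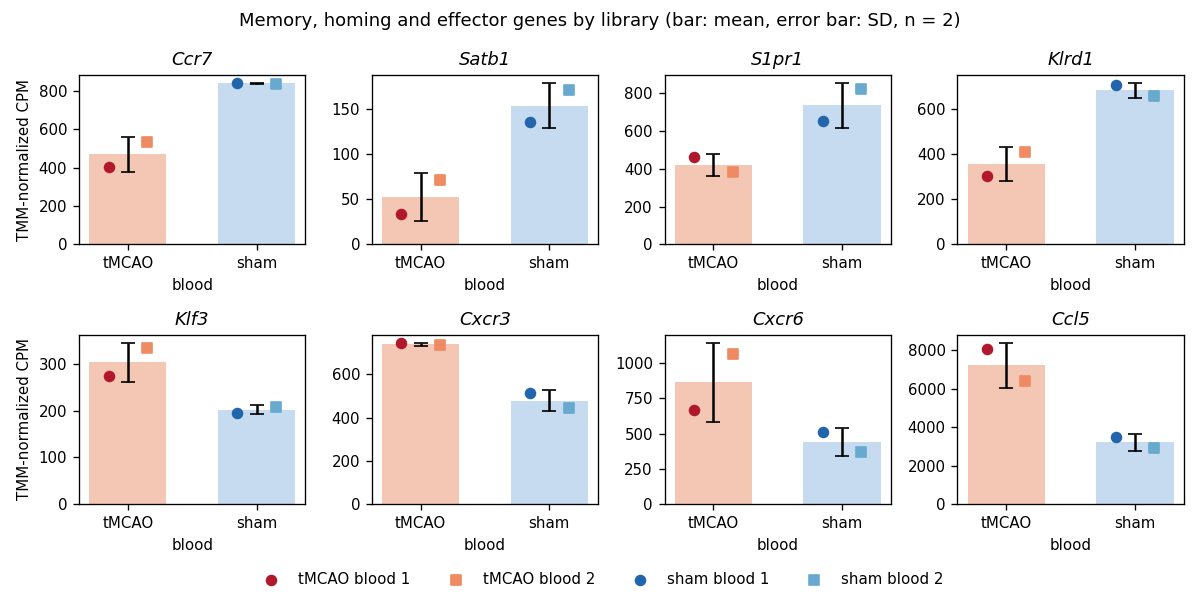
TMM-normalized CPM of 8 memory, homing and effector genes in tMCAO blood (left) and sham blood (right) of each panel. Bars are means, error bars SD of 2 libraries and points single libraries. *Ccr7*, *Satb1*, *S1pr1* and *Klrd1* lie lower in both tMCAO blood libraries, and *Klf3*, *Cxcr3*, *Cxcr6* and *Ccl5* higher. *Ccr7* and *Ccl5* were chosen after their values were seen. In the whole effector list, 4 of 30 genes lay above sham blood without overlap and 6 below. None passed edgeR's test.

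Signaling genes stood on both sides of sham blood within each pathway, and 0 passed the test in the 4 signaling lists. Of 32 genes of the T cell receptor complex and its proximal kinases and adaptors, 7 lay above sham blood without overlap (21.9%) and 6 below (18.8%). The median log2 fold change was 0.17. *Lat*, the membrane adaptor that couples the receptor to phospholipase C, had 688 and 1069 CPM in tMCAO blood and 486 and 448 CPM in sham blood (log2FC 0.91 ± 0.31 SE). *Sit1*, an inhibitory adaptor, had 84.8 and 134 CPM in tMCAO blood and 64.1 and 54.9 CPM in sham blood. *Ptpn6*, the phosphatase SHP-1 that dampens receptor signaling, had 207 and 314 CPM in tMCAO blood, against 409 and 522 CPM in sham blood (log2FC -0.83 ± 0.30 SE). *Bcl10*, which links the receptor to NF-kappaB, had 75.7 and 69.1 CPM in tMCAO blood and 92.9 and 105 CPM in sham blood. *Cd28*, the costimulatory receptor, chosen after its values were seen, had 477 and 375 CPM in tMCAO blood and 594 and 754 CPM in sham blood. The adaptors *Lat* and *Sit1* lay above sham blood and the other 3 genes below it, all with the groups apart. The balance of the list turned with the scaling, with 6 above and 7 below under DESeq2 size factors and 5 above and 6 below under library size alone. T cell scaling gave 4 above and 8 below, but its factors are taken from this same list, so it is no separate check of it.

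For cytokine receptors and JAK-STAT signaling, 5 of 34 genes lay above sham blood (14.7%) and 12 below (35.3%), with a median log2 fold change of -0.07. *Ifngr2*, the signaling chain of the interferon gamma receptor, had 1.14 and 0 CPM in tMCAO blood and 9.48 and 13.5 CPM in sham blood (log2FC -4.27 ± 0.89 SE, edgeR adjusted p = 0.137). *Ifngr2* reached the 10 counts in both libraries in sham blood only. *Il4ra*, the IL-4 receptor alpha chain, had 7.35 and 13.1 CPM in tMCAO blood and 20.8 and 21.4 CPM in sham blood. *Jak3*, the kinase of the common gamma chain, had 6.26 and 2.51 CPM in tMCAO blood and 9.18 and 12.1 CPM in sham blood. These receptor chains and the kinase were lower in both tMCAO blood libraries. The group's median log2 ratio to sham blood was 0.05 in tMCAO blood 1 and -0.50 in tMCAO blood 2, so the group as a whole was below sham blood in tMCAO blood 2 only.

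In MAPK and NFAT signaling, 5 of 37 genes lay above sham blood (13.5%) and 11 below (29.7%). *Dusp6*, the phosphatase that switches off ERK and is itself induced by ERK activity, had 22.3 and 25.0 CPM in tMCAO blood and 59.3 and 58.9 CPM in sham blood (log2FC -1.32 ± 0.26 SE, edgeR adjusted p = 0.111). *Map2k1*, the ERK kinase MEK1, had 84.5 and 72.2 CPM in tMCAO blood, against 140.1 and 176 CPM in sham blood (log2FC -1.01 ± 0.25 SE). *Orai1*, the pore of the store-operated calcium channel upstream of NFAT, had 37.6 and 35.7 CPM in tMCAO blood and 49.1 and 88.7 CPM in sham blood. *Mapk9*, the stress kinase JNK2, stood on the other side with 105 and 117 CPM in tMCAO blood and 60.3 and 65.9 CPM in sham blood (log2FC 0.82 ± 0.24 SE). *Dusp6*, *Map2k1* and *Mapk9* had close libraries within each group, and DESeq2 on all 6 samples called *Dusp6* and *Map2k1* lower. In PI3K, AKT and mTOR signaling, 7 of 32 genes lay above (21.9%) and 5 below (15.6%), and 4 above and 6 below under T cell scaling. *Pik3r1*, the p85 alpha regulatory subunit of PI3K, had 89.8 and 106 CPM in tMCAO blood and 153 and 181 CPM in sham blood. *Slc3a2*, the heavy chain of amino acid transporters that feed mTORC1, had 115 and 107 CPM in tMCAO blood and 150 and 180 CPM in sham blood. *Deptor*, an inhibitor of mTOR, had no counts in tMCAO blood and 0.51 and 0.976 CPM in sham blood, which is at least 9.02-fold lower when 3 counts are allowed for the tMCAO blood group, and did not pass the test (adjusted p = 0.102 by edgeR).

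The cytosolic ribosomal proteins had a median near that of sham blood, with more genes below it than above. Of 81 cytosolic ribosomal protein genes, 0 passed the test, 8 lay above sham blood and 22 below (27.2%, against 19.3% of the genes described), and the median log2 fold change was 0.00, with the middle 50% of genes between -0.14 and 0.11. With library size alone 5 lay above and 33 below, with a median of -0.10. Ribosomal proteins took together 3.89% and 4.01% of the counts on genes in tMCAO blood and 4.16% and 4.14% in sham blood. *Rpl39* had 161 and 116 CPM in tMCAO blood and 190 and 208 CPM in sham blood, and *Rpl27a* had 176 and 142 CPM in tMCAO blood and 200.1 and 198 CPM in sham blood. Many ribosomal protein genes have processed pseudogenes, and reads shared with these may not have been counted, which makes single genes of the group uncertain. Of 64 initiation and elongation factors, 0 passed the test, 20 lay above (31.2%) and 10 below (6 above and 10 below under T cell scaling), with a median log2 fold change of 0.14. *Eif2s2*, the beta subunit of the factor that brings the initiator tRNA, had 201 and 401 CPM in tMCAO blood and 171 and 173 CPM in sham blood. *Eif2b1*, of its exchange factor, had 81.7 and 144 CPM in tMCAO blood and 80.3 and 67.1 CPM in sham blood, and *Eif4e2*, a cap-binding protein, had 171 and 216 CPM in tMCAO blood and 134 and 131 CPM in sham blood. All 3 factors were highest in tMCAO blood 2. *Eef2k*, the kinase that halts elongation, had no counts in tMCAO blood and 1.63 and 1.03 CPM in sham blood, which is at least 16.1-fold lower by the same allowance, without passing the test (adjusted p = 0.0908 by edgeR).

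The aminoacyl-tRNA synthetases and the factors of ribosome biogenesis had medians of 0.06 and 0.05 over 20 and 30 genes, with 0 called in either list. *Eprs*, the glutamyl-prolyl-tRNA synthetase, had 52.2 and 73.5 CPM in tMCAO blood and 110.4 and 98.5 CPM in sham blood, and *Yars* also lay lower, while *Kars* and *Nars* lay higher with log2 fold changes of 0.48 and 0.53. Of ribosome biogenesis genes, 3 lay above sham blood and 1 below (1 above and 2 below under T cell scaling), and *Noc4l* and *Polr1c* had log2 fold changes of 0.42 and 0.56.

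Mitochondrial ribosomal proteins, which build the ribosome for the proteins encoded in the mitochondrial genome, lay on 1 side of sham blood wherever the groups did not overlap under TMM scaling. Of 77 genes 0 passed the test, 19 lay above sham blood without overlap (24.7%, against 18.7% of the genes described and 23.2% of well expressed genes) and 0 below, and the median log2 fold change was 0.44. *Mrps26* had 93.5 and 107 CPM in tMCAO blood and 68.8 and 64.8 CPM in sham blood, and *Mrps9* had 77.4 and 101 CPM in tMCAO blood and 60.6 and 59.7 CPM in sham blood. *Mrpl33* had 142 and 371 CPM in tMCAO blood, against 134 and 128 CPM in sham blood, and *Mrpl48* had 41.4 and 94.9 CPM in tMCAO blood and 35.1 and 40.2 CPM in sham blood. *Mrps26* and *Mrps9* stood clear of sham blood in both tMCAO blood libraries, and *Mrpl33* and *Mrpl48* mainly in tMCAO blood 2. Over the whole group the median log2 ratio to sham blood was -0.09 in tMCAO blood 1 and 0.80 in tMCAO blood 2, and 36 of the 77 genes were more than 2-fold higher in tMCAO blood 2 than in tMCAO blood 1, against 11.4% of the genes described. Under T cell scaling 5 genes lay above sham blood and 1 below.

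Oxidative phosphorylation, the respiratory chain and ATP synthase, was similar. Of 84 genes 0 passed the test, 21 lay above sham blood (25.0%, near the 23.2% of well expressed genes) and 3 below (3.57%, against 15.5%), and the median log2 fold change was 0.39. Under T cell scaling 5 lay above and 4 below. *Ndufa12*, a subunit of complex I, had 125 and 303 CPM in tMCAO blood and 98.3 and 88.9 CPM in sham blood (log2FC 1.19 ± 0.42 SE, edgeR adjusted p = 0.509). *Uqcr10*, a subunit of complex III, had 160 and 286 CPM in tMCAO blood and 131 and 122 CPM in sham blood. *Ndufv3* of complex I had 121 and 152 CPM in tMCAO blood, against 94.2 and 94.2 CPM in sham blood. The sham blood libraries were near identical for these genes and the tMCAO blood libraries were not. The group's median log2 ratio to sham blood was -0.04 in tMCAO blood 1 and 0.70 in tMCAO blood 2. The proteasome, which degrades ubiquitinated proteins, gave 17 of 47 genes above sham blood (36.2%), 2 below and 0 called (11 above and 2 below under DESeq2 size factors, 4 above and 2 below under T cell scaling), with a median log2 fold change of 0.37, and median ratios of 0.03 in tMCAO blood 1 and 0.68 in tMCAO blood 2. *Psmb3*, of the catalytic core, had 349 and 808 CPM in tMCAO blood and 315 and 283 CPM in sham blood. *Psmd4*, a ubiquitin receptor of the regulatory particle, had 284 and 433 CPM in tMCAO blood and 245 and 244 CPM in sham blood. *Psmf1*, a proteasome inhibitor, had 98.9 and 215 CPM in tMCAO blood and 94.4 and 89.5 CPM in sham blood. Without tMCAO blood 1, edgeR called 19 mitochondrial ribosomal, 19 oxidative phosphorylation and 12 proteasome genes higher, against 2.54% of the genes described, and without tMCAO blood 2 it called 0 in each, with medians of -0.13, -0.07 and 0.00.

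**Figure D3:**
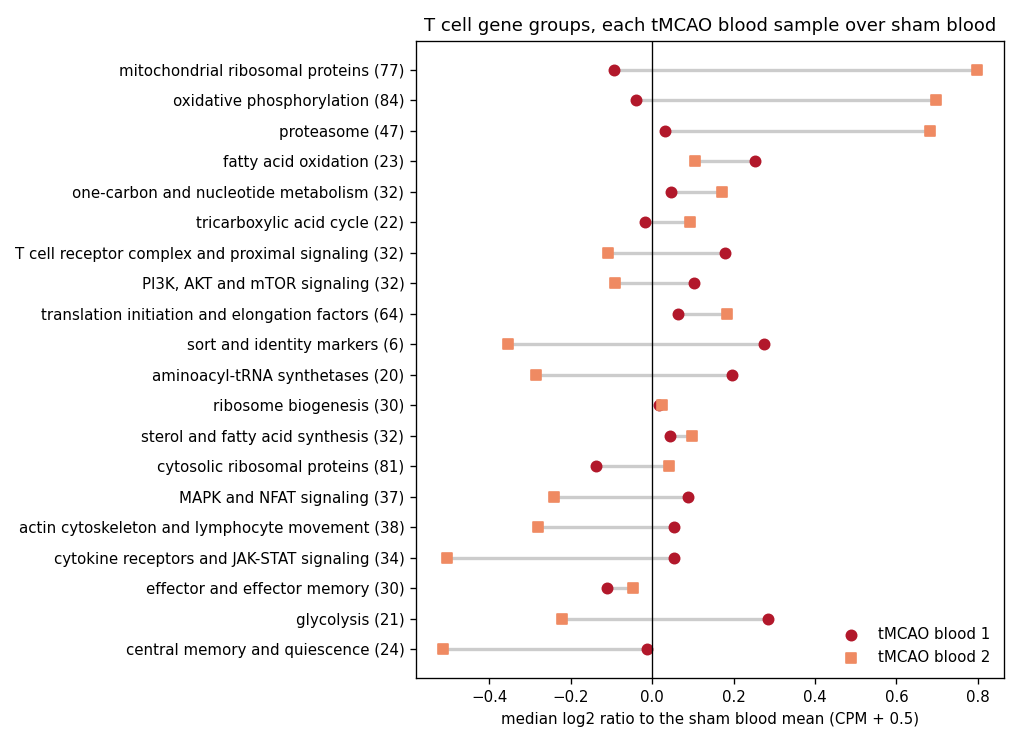
Median log2 ratio of each tMCAO blood library to the mean of sham blood for 20 gene groups, with the number of genes tested in brackets. Circles are tMCAO blood 1 and squares tMCAO blood 2. Mitochondrial ribosomal protein genes stand at -0.09 in tMCAO blood 1 and at 0.80 in tMCAO blood 2, and central memory genes at -0.01 and -0.51.

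The other metabolic pathways showed smaller differences. Of 23 fatty acid oxidation genes, 7 lay above sham blood (30.4%), 1 below and 0 passed the test, and here both tMCAO blood libraries leaned the same way, with median log2 ratios of 0.25 and 0.11. *Acadm*, the medium-chain acyl-CoA dehydrogenase, had 87.4 and 139 CPM in tMCAO blood and 69.8 and 56.8 CPM in sham blood (log2FC 0.84 ± 0.30 SE). *Etfdh*, which passes the electrons on to ubiquinone, had 83.7 and 73.0 CPM in tMCAO blood and 58.1 and 47.9 CPM in sham blood. *Cpt2* and *Slc25a20*, of the carnitine shuttle into mitochondria, had log2 fold changes of 0.83 and 0.60. In the tricarboxylic acid cycle, 3 of 22 genes lay above and 1 below (2 above and 3 below with library size alone), with *Idh3a* at 262 and 383 CPM in tMCAO blood and 254 and 214 CPM in sham blood, and the cytosolic *Idh1* at 12.1 and 26.0 CPM in tMCAO blood and 27.4 and 32.0 CPM in sham blood. Glycolysis had even counts, with 4 of 21 genes above (19.0%), 4 below (19.0%), 0 called and a median of -0.08. Its median log2 ratio to sham blood was 0.29 in tMCAO blood 1 and -0.22 in tMCAO blood 2, so the libraries leaned opposite ways. *Ldhb* and *Aldoc*, the lactate dehydrogenase B and aldolase C isoforms, had log2 fold changes of 1.12 and 1.10 at low levels, and *Slc16a3*, a lactate exporter, had 0.414 and 0 CPM in tMCAO blood and 0.663 and 2.82 CPM in sham blood.

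Lipid synthesis held the 1 called gene of the T cell lists, which had reached the count minimum in sham blood only. *Scd1*, the stearoyl-CoA desaturase that makes monounsaturated fatty acids (chromosome 19, 44394455 to 44407879), had no counts in tMCAO blood and 26.2 and 19.6 CPM in sham blood, and fell at least 278-fold when 3 counts are allowed for the tMCAO blood group (edgeR adjusted p = 0.0471). The call was lost without any 1 sample other than tMCAO blood 1, in the fit of the 4 blood libraries, with the replicate number as a block and with library size as the only scaling. *Hmgcs1*, of the mevalonate pathway, had 27.7 and 33.0 CPM in tMCAO blood and 56.3 and 59.7 CPM in sham blood (log2FC -0.93 ± 0.27 SE). *Idi1*, further down the pathway, had 41.3 and 48.3 CPM in tMCAO blood, against 122 and 68.7 CPM in sham blood. *Elovl1*, which extends very long fatty acids, lay higher with 150.3 and 205 CPM in tMCAO blood and 119 and 103 CPM in sham blood. In all, 5 of 32 sterol and fatty acid synthesis genes lay above sham blood (15.6%) and 7 below (21.9%). One-carbon and nucleotide metabolism had 8 of 32 genes above (25.0%), 3 below (9.38%) and 0 called. Library size alone gave 7 above and 7 below, and T cell scaling 5 above and 4 below. *Cad*, which starts pyrimidine synthesis, and *Psph*, of serine synthesis, had log2 fold changes of 0.93 and 0.42, and *Prps2*, which makes phosphoribosyl pyrophosphate, had -0.74.

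Genes of the actin cytoskeleton and of lymphocyte movement had 5 of 38 above sham blood (13.2%), 9 below (23.7%) and 0 called. *Actb*, cytoplasmic beta-actin, had 1990 and 1488 CPM in tMCAO blood and 3100.2 and 2666 CPM in sham blood (log2FC -0.73 ± 0.30 SE). *Actr3*, of the actin-branching ARP2/3 complex, had 1769 and 1454 CPM in tMCAO blood and 2303 and 2172 CPM in sham blood, and *Rhoa*, a GTPase that drives contraction, had 234 and 225 CPM in tMCAO blood and 338 and 310 CPM in sham blood. *Arpc3*, also of ARP2/3, had 49.0 and 95.0 CPM in tMCAO blood and 40.8 and 39.5 CPM in sham blood, so members of 1 complex stood on both sides of sham blood.

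The tMCAO blood libraries differed from each other far more than the sham blood libraries did. Of the 3525 well expressed genes, 718 differed more than 2-fold between the tMCAO blood libraries (20.4%) and 5 between the sham blood libraries (0.142%). The SD of the log2 ratio between the libraries of a group was 0.78 in tMCAO blood and 0.22 in sham blood over these genes, and 1.01 in tMCAO blood and 0.52 in sham blood over all genes described. Among all genes described, 1268 were more than 2-fold higher in tMCAO blood 2 than in tMCAO blood 1 (11.4%) and 1955 more than 2-fold lower (17.6%).

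**Figure D4:**
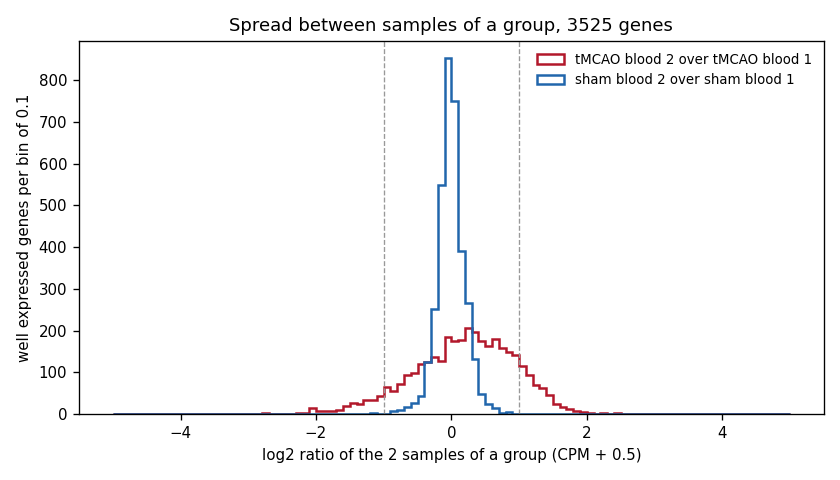
Number of well expressed genes by the log2 ratio between the 2 libraries of a group, tMCAO blood in red and sham blood in blue. Dashed lines mark a 2-fold difference, which 718 genes passed in tMCAO blood and 5 in sham blood.

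The genes that set the tMCAO blood libraries apart included T cell regulators. *Lfng*, a glycosyltransferase that modifies Notch receptors, had 294 and 14.9 CPM in tMCAO blood and 68.4 and 91.5 CPM in sham blood. *Cd6*, a T cell surface receptor that binds ALCAM, had 280 and 31.8 CPM in tMCAO blood and 93.4 and 111 CPM in sham blood. *Txnip*, an inhibitor of glucose uptake, had 867 and 134 CPM in tMCAO blood and 407 and 374 CPM in sham blood. For all 3, tMCAO blood 1 was above sham blood and tMCAO blood 2 below it. *Cotl1*, which binds actin, *Arhgdia*, an inhibitor of small GTPases, and *Laptm5*, a lysosomal protein that lowers receptor levels, had the same order, with *Cotl1* at 525 and 72.7 CPM in tMCAO blood and 395 and 395 CPM in sham blood. In the opposite direction, *Srsf7*, a splicing factor, had 339 and 1586 CPM in tMCAO blood and 666 and 671 CPM in sham blood. *Ranbp1*, of nuclear transport, had 134 and 504 CPM in tMCAO blood and 204 and 184 CPM in sham blood. *Il2rg*, the common gamma chain, chosen after its values were seen, had 1590 and 5744 CPM in tMCAO blood and 2320 and 2136 CPM in sham blood. Here tMCAO blood 2 stood above all other libraries. *Klra7*, an NK lectin-type receptor with near-identical paralogs, had 34.6 and 406 CPM in tMCAO blood and 304 and 298 CPM in sham blood, and *Fcer1g*, an adaptor of Fc receptors found in NK cells, had 22.5 and 190 CPM in tMCAO blood and 153 and 173 CPM in sham blood. For these genes tMCAO blood 2 was near sham blood and tMCAO blood 1 was the library that stood apart.

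Transcript length and GC content moved with the libraries. Length here is the mean over all GENCODE M21 transcripts of a gene, and GC content is taken over the same transcripts. Neither is measured on the transcripts expressed in these cells. When well expressed genes were divided into 5 classes of equal size, in the class with the shortest transcripts, 383 to 944 bases, the median log2 ratio to sham blood was -0.05 in tMCAO blood 1 and 0.58 in tMCAO blood 2, and in the class with the longest it was 0.00 and -0.10. By GC content, the median in tMCAO blood 1 was -0.21 in the lowest of 5 classes and 0.15 in the highest. Between the sham blood libraries the medians stayed between -0.05 and 0.02. The groups that were high in tMCAO blood 2 hold short transcripts, with a median of 1075 bases for mitochondrial ribosomal protein genes, 821 for oxidative phosphorylation and 1055 for the proteasome, against 1415 for all well expressed genes. The cytosolic ribosomal protein genes, with a median of 701 bases, had a median ratio of 0.04 in tMCAO blood 2. Whether length sets these ratios was not tested. With a correction for GC content and length, added after the data were seen, the median log2 fold changes were 0.24, 0.12 and 0.16 in the first 3 groups and -0.27 in the cytosolic ribosomal proteins.

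**Figure D5:**
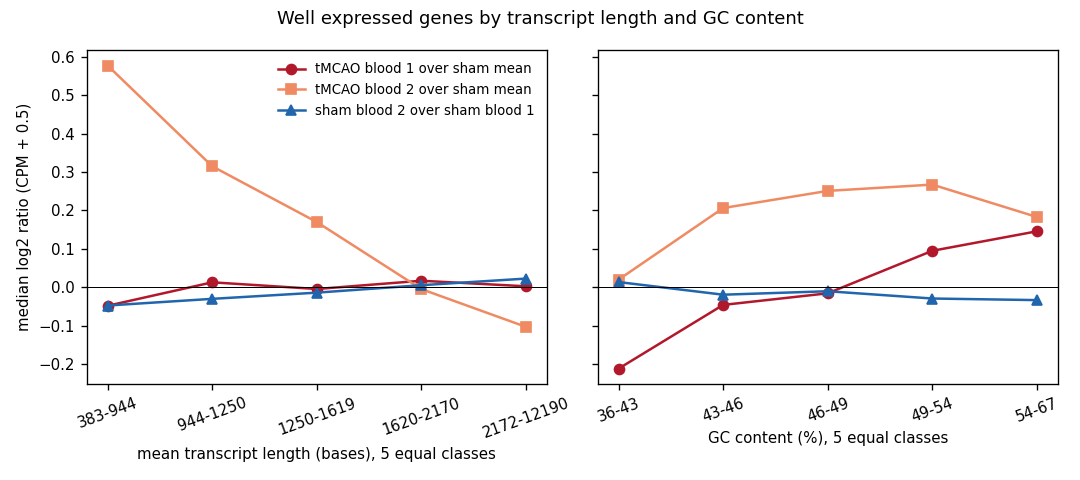
Median log2 ratio of well expressed genes in 5 classes of mean annotated transcript length (left) and GC content (right). Lines are tMCAO blood 1 and tMCAO blood 2 over the sham blood mean, and sham blood 2 over sham blood 1. In tMCAO blood 2 the median is 0.58 for the shortest class and -0.10 for the longest.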

How the data were processed

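RNA of sorted CD8+ TRLs was amplified with a SMART-Seq kit, made into Nextera XT libraries and read as 75 bp paired ends. The authors trimmed the reads, mapped them to GRCm38 with TopHat and deposited raw counts of reads per gene symbol, which were used here without further change. Counting used R/Bioconductor per the methods. The TopHat version, the counting package and the release of the gene models were not given in the sources used here. A deposited FPKM table was not used. The 5 lines without a gene name and 27 lines with dates in place of symbols entered neither library sizes nor tests. Reads outside genes were 43.0% to 44.2% of each blood library, and reads without a unique position 18.0% to 22.0%.

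edgeR 4.0.16 in R 4.3.3 (TMM, filterByExpr at 10 counts per sample and 15 in all, glmQLFit and glmQLFTest) was fitted to all 6 samples with 3 residual degrees of freedom, and tMCAO blood was contrasted with sham blood. A call needed both a p under 0.05 after Benjamini-Hochberg adjustment and a difference of more than 2-fold. The SE is the size of the log2 fold change divided by the root of the F statistic. The smallest two-sided exact permutation p for 2 against 2 samples is 0.333, so p-values come from the model alone. Ratios between libraries used log2(CPM + 0.5). Alternatives were DESeq2 1.42.0, limma-voom (limma 3.58.1), other scalings, filters and thresholds, the replicate number as a block, leaving out each sample, and a correction for GC content and length (GENCODE M21 for 95.7% of symbols). The procedure was tested on simulated counts. Replicate numbers were not treated as pairs in the main fit, and whether they pair the samples is not known.

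The genes described and the gene lists were chosen with earlier results of these data known. Named genes were the sort markers, for each T cell list up to 4 tested genes with the smallest p, the 15 higher and 15 lower well expressed genes outside the lists of other cells with the smallest p and no overlap, the 10 highest and 10 lowest ratios between the tMCAO blood libraries at 100 CPM or more, and up to 2 genes for each list of other cells. Others are marked as chosen after their values were seen, as were *Cd74*, *Cd79a*, *H2-Aa*, *H2-DMb2* and *Lyz2*, named because they were called. Not every gene the rule allows is printed, and some genes that the rule covers are not reported here.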

Additional observations from a re-analysis of the deposited data

How the results depend on the processing

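The number of genes called between tMCAO blood and sham blood, 0 higher and 102 lower, depended on the test and on the samples in the fit. With all 6 samples in DESeq2 there were 13 higher and 359 lower (102 of the 102 lower genes included), with the 4 blood samples 6 higher and 206 lower, limma-voom called 22 lower, and edgeR on the 4 blood samples 0 lower. Scaling on T cell genes gave 171 lower, no expression filter 1 higher and 156 lower, and an adjusted p under 0.01 left 38 lower. Leaving out 1 sample gave 0 to 284 higher and 0 to 469 lower, the lowest without either brain library and the highest without tMCAO blood 1. For well expressed genes outside the lists of other cells, 0 higher and 2 lower, the DESeq2 counts were 2 higher and 20 lower with 6 samples, and 2 higher and 15 lower with the 4 blood samples, edgeR on 4 samples and limma-voom 0 lower, an adjusted p under 0.01 left 1 lower, and leaving out 1 sample gave 0 to 258 higher and 0 to 88 lower. The share of well expressed genes that differed over 2-fold between the tMCAO blood libraries, 20.4%, was 22.4% with a floor of 20 CPM, 21.8% with DESeq2 size factors, 18.6% with library size alone and 29.9% with T cell scaling. Without 1 sample in turn, the log2 fold change ran between -0.22 and 0.50 for *Cd8a*, -0.68 and 0.33 for *Cd3e*, -1.43 and 0.63 for *Il2rb* and -0.039 and 0.74 for *Itga4*. The causes of these changes were not tested. With the replicate block, 0 genes were called higher and 72 lower, 70 of them among the 102, and 1 of the 2 well expressed genes, *Cd83*. Across genes, the log2 ratios of sample 2 to sample 1 correlated with r of -0.02 between tMCAO blood and sham blood. The r was 0.04 between tMCAO blood and brain and -0.04 between sham blood and brain. Such correlations cannot tell whether samples with the same number share an origin. Depth limits the low genes: a gene with no counts in tMCAO blood allows up to 3 counts, and such limits cover counting error only.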
